A study of Mus musculus with 12 samples.

Results

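Dyrk3, Nuak2 and Mknk2 are 3 serine/threonine kinase genes whose transcripts stood far above the control level in mouse MC3T3 sc4 osteoblasts given the histone deacetylase inhibitor SAHA. The genes were selected on the fitted change between 2 h of SAHA and DMSO, as the 3 kinase genes among the 10 largest rises after 2 h of SAHA. Every probe annotated to these symbols was used, which gave 1 probe per gene, 3 of 45281 probes on the array and 3 of the 9153 genes tested. Because the values at 2 h chose the genes, that comparison is given as a description with no test.

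The RNA came from 3 groups of 4 arrays each. Cells in the first group received 20 µM SAHA (suberoylanilidehydroxamic acid, vorinostat) and are labelled 6 h, those in the second received the same drug and are labelled 2 h, and the control cells received the solvent DMSO. All cells were of the MC3T3 sc4 line, a subclone of mouse calvarial pre-osteoblasts, and were at day 4 of differentiation, in medium to which beta-glycerol phosphate (4 mM) and ascorbic acid (50 µg/ml) had been added. All were digested with collagenase for 40 min before harvest, still in drug or solvent. The treatment text describes the 2 h exposure alone and the time in DMSO is not given, so time in SAHA and time in culture cannot be told apart. Nothing in the labels states that replicate arrays stem from separate dishes, and the p-values therefore reflect the scatter among arrays, which may be technical.

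DYRK3 is a dual-specificity kinase of the CMGC group that dissolves condensates such as stress granules in human cells and phosphorylates PRAS40, an inhibitor of the mTORC1 complex. NUAK2, also called SNARK, is an AMPK-related kinase of the CAMK group that LKB1 activates and that acts on myosin phosphatase, and its gene is a target of the Hippo effector YAP in human cells. MNK2, the product of Mknk2, is a CAMK-group kinase activated by MAP kinases such as p38 that phosphorylates the cap-binding protein eIF4E. SAHA blocks zinc-dependent deacetylases, and acetylated histones accumulate in cells that receive it.

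Between 14904 and 16065 probes were detected on each array, at a detection p under 0.01. Correlations between arrays over all tested genes were 0.994 to 0.997 within groups and 0.921 to 0.970 between groups. Of 9 osteoblast markers 7 were measured, and Alpl, Bglap, Ibsp, Sp7, Col1a1 and Col1a2 were each detected on all 12 arrays. Sp7, the gene of osterix, a transcription factor of the osteoblast lineage, fell by 4.23 ± 0.07 on the log2 scale at 6 h and fell by 2.10 ± 0.07 at 2 h. Alpl, the alkaline phosphatase gene, fell by 1.15 ± 0.10 at 6 h and had a change of -0.15 ± 0.10 at 2 h that did not pass, and the other 5 measured markers did not pass at either time. The summed osteoblast level, on the linear scale, was 72234 to 76997 after 6 h, 72713 to 76106 after 2 h and 77350 to 85903 in DMSO. Runx2 and Spp1 were not analysed here. None of the 5 adipocyte or the 4 endothelial markers had a probe with a single gene name that was detected on at least 4 of 12 arrays. Of 6 macrophage and blood markers 1 did, Csf1r, detected on 0 of 4 arrays after 6 h, 1 after 2 h and 3 in DMSO. The summed level of 3 of 4 chondrocyte markers was 3249 to 3764 after 6 h, 3334 to 3802 after 2 h and 3831 to 4308 in DMSO, and that of 3 of 5 muscle markers 279 to 320, 250 to 288 and 310 to 353 in the same order of groups. Of the muscle markers, Myog was detected on 1, 2 and 2 of 4 arrays and Acta1 on 4, 1 and 4, again in that order. Des was detected on all 12 arrays, and the chondrocyte gene Comp on 0, 3 and 4 of 4. Whether these cell types have a part in the results was not tested. An intensity measured in RNA of a whole culture cannot tell more expressing cells from more RNA per cell.

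The promoters of Dyrk3 and Mknk2 are shown, and that of Nuak2 is not, because the promoter reference used here held no entry for it. The transcripts of Dyrk3 and Mknk2 had large rises and differed in their order between 6 h and 2 h. Each sequence is the 250 bases before the annotated start, 5′ to 3′ on the strand of the gene, from RefSeq on GRCm38.p6, which holds Dyrk3 at chr1:131138235-131138484 and Mknk2 at chr10:80676294-80676543, both on the minus strand. Capitals mark matches, on either strand, to the letters of common promoter elements. These were GGGCGG for the GC box, TATAAA for the TATA box and CCAAT for the box of that name. The cAMP response element (CRE) was searched as TGACGTCA, its full form, and as the short form TGACG that lies within it. The others were TGANTCA for AP-1, CACGTG for the E-box and CATTCC for the TEAD factors.
Dyrk3: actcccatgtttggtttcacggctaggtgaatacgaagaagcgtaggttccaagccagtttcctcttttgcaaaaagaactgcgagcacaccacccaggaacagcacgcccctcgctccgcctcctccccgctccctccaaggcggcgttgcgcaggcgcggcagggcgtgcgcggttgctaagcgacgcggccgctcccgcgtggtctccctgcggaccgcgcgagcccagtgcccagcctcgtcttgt
Mknk2: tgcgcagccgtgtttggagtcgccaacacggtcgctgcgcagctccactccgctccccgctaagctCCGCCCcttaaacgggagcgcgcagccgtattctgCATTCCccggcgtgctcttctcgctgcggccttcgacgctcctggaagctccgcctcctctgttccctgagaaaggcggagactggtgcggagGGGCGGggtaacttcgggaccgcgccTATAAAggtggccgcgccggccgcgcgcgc
Both windows were rich in CpG. Dyrk3 had 27 CpG sites and a GC content of 64.8%, and Mknk2 had 33 sites and 68.4%, against a median GC content of 52.4% over 32851 promoters. The ratio of observed to expected CpG was 1.04 for Dyrk3 and 1.13 for Mknk2, and the median over all promoters was 0.37. The Mknk2 window held a TATA box whose first base lies 30 bases before the start, 2 GC boxes and 1 TEAD match, while the Dyrk3 window held none of the letters searched. Of all promoters 12.4% held the TATA letters, 32.7% a GC box, 12.6% the TEAD letters, 33.8% the CCAAT letters, 17.8% the short CRE, 1.55% the full CRE, 6.75% the AP-1 letters and 6.02% the E-box. A match describes letters and not a bound site, and a window without one says nothing of the factor.

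Dyrk3 (probe ILMN_2699522) was dim in DMSO and brighter on every SAHA array. Its non-normalized intensity, in the array's linear units, was 1061, 957, 789.5 and 1021 on the 6 h arrays, 1832, 1426, 1286 and 1169 on the 2 h arrays, and 190.3, 222, 239 and 219 on the DMSO arrays. After background correction and quantile normalization the log2 intensities were 9.93, 9.84, 9.88 and 9.98 after 6 h, 10.30, 10.19, 10.16 and 10.32 after 2 h, and 6.98, 7.42, 7.21 and 7.31 in DMSO. The 3 groups did not overlap on the normalized scale, with 2 h highest and DMSO lowest. All 4 DMSO arrays detected the probe, at a detection p of 0.00107 each.

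The fitted log2 change of Dyrk3 was 2.68 ± 0.08 for 6 h against DMSO, a 6.42-fold rise, and 3.02 ± 0.08 for 2 h against DMSO, an 8.09-fold difference (standard errors of the limma fit, n = 4 arrays per group). The 6 h rise had an adjusted p of 4.91e-12 in limma, with Benjamini-Hochberg adjustment over the 9153 genes. Between the time points Dyrk3 fell by 0.34 ± 0.08 on the log2 scale, or 1.26-fold (adjusted p = 0.00328 in limma). These tests use 6 h arrays that had no part in the choice of the genes, but the arrays they are set against did. The size of the Dyrk3 change depended on the background correction, and it was 2.14 for 6 h and 2.45 for 2 h with none. In that setting the changes were 2.01 and 2.44 for Nuak2 and 2.91 and 2.57 for Mknk2. Dyrk3 had the lowest DMSO intensity of the 3 genes, and whether this set the dependence was not tested.

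Nuak2 (probe ILMN_2680038) was detected on all 12 arrays. Its non-normalized intensity was 1520.0, 1441, 1156 and 1496 after 6 h, 2654, 2473.5, 2121 and 1815 after 2 h, and 323, 319, 411 and 351 in DMSO. The normalized log2 values were 10.48, 10.45, 10.47 and 10.58 after 6 h, 10.86, 11.01, 10.92 and 10.98 after 2 h, and 8.10, 8.15, 8.26 and 8.25 in DMSO. As with Dyrk3, every 2 h array lay above every 6 h array and all SAHA arrays lay above DMSO.

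Nuak2 rose 4.95-fold at 6 h against DMSO (log2 change 2.31 ± 0.06, adjusted p = 1.10e-12 in limma). The 2 h difference was 6.76-fold (2.76 ± 0.06). At 6 h against 2 h it fell by 0.45 ± 0.06, or 1.37-fold (adjusted p = 1.57e-05 in limma).

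Mknk2 (probe ILMN_2733887) had non-normalized intensities of 11933, 11150.3, 9299 and 10213 after 6 h, 12251, 10270.2, 9754 and 8077 after 2 h, and 1268, 1304, 1693 and 1459.8 in DMSO. On this scale the 6 h and 2 h arrays overlapped and both lay above DMSO. The normalized log2 values were 13.48, 13.43, 13.49 and 13.43 after 6 h, 13.12, 13.05, 13.17 and 13.14 after 2 h, and 10.39, 10.44, 10.53 and 10.54 in DMSO. After normalization the groups no longer overlapped, and 6 h was highest.

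Mknk2 rose 7.90-fold at 6 h against DMSO (log2 change 2.98 ± 0.05, adjusted p = 4.21e-14 in limma), and the 2 h difference was 6.24-fold (2.64 ± 0.05). Unlike the other two it was higher at 6 h than at 2 h, by 0.34 ± 0.05, or 1.26-fold (adjusted p = 8.53e-05 in limma). This last call rested on the normalization between arrays: the log2 difference was 0.21 (adjusted p = 0.136) with each array scaled to the same median and 0.09 (adjusted p = 0.735) with none. The median over all genes moved with these settings, from 0.04 in the main processing to -0.08 and -0.20, and the Mknk2 difference less that median was 0.30, 0.29 and 0.29.

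**Figure D1:**
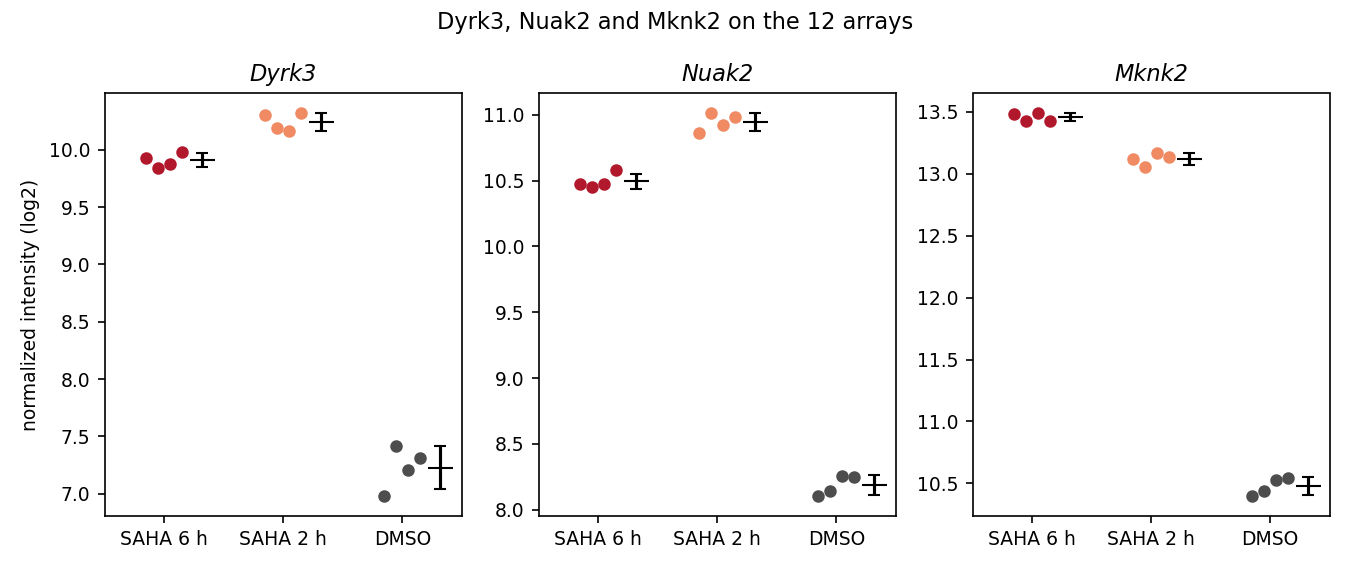
Normalized log2 intensity of Dyrk3, Nuak2 and Mknk2 in the SAHA 6 h, SAHA 2 h and DMSO groups. Each point is an array, and the bar beside each group is the mean with its SD over 4 arrays. The vertical axes differ between genes and do not start at 0. Dyrk3 and Nuak2 were highest after 2 h and Mknk2 after 6 h.

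The calls are read against a broad response. Of the 9153 genes 77.4% changed at 6 h against DMSO, 38.9% were higher and 38.5% lower, and 10.0% were called and at least 2-fold higher, as all 3 kinase genes were. Between the time points 62.7% changed, with 28.4% lower at 6 h, as Dyrk3 and Nuak2 were, and 34.4% higher, as Mknk2 was. The number changed between the time points was 5743, and 3517 with no normalization between arrays. Groups did not overlap for 70.8% of genes at 6 h against DMSO, 55.4% at 6 h against 2 h and 53.4% at 2 h against DMSO. At 2 h against DMSO 58.6% changed, 27.8% were higher, 30.7% lower and 3.12% were at least 2-fold higher, from which nothing is read here, since this contrast chose the genes. By fitted change at 2 h, Dyrk3 ranked 2, Nuak2 ranked 5 and Mknk2 ranked 6. The gene at rank 10, Bcl2l11, had a log2 change of 2.40, and the gene at rank 11, H1f2, had 2.38. At 6 h the ranks were 30 for Dyrk3, 57 for Nuak2 and 19 for Mknk2. The authors' normalized values, a separate table of the same arrays on a linear scale, averaged 1017 ± 45 after 6 h, 1280.5 ± 63.5 after 2 h and 224 ± 17 in DMSO for Dyrk3 (SD, n = 4). For Nuak2 they averaged 1493 ± 56, 2023 ± 90.2 and 362 ± 12 in the same groups, and for Mknk2 11374 ± 363, 8802 ± 254 and 1508 ± 85. The order of the groups was thus the same for each gene in the authors' table.

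**Figure D2:**
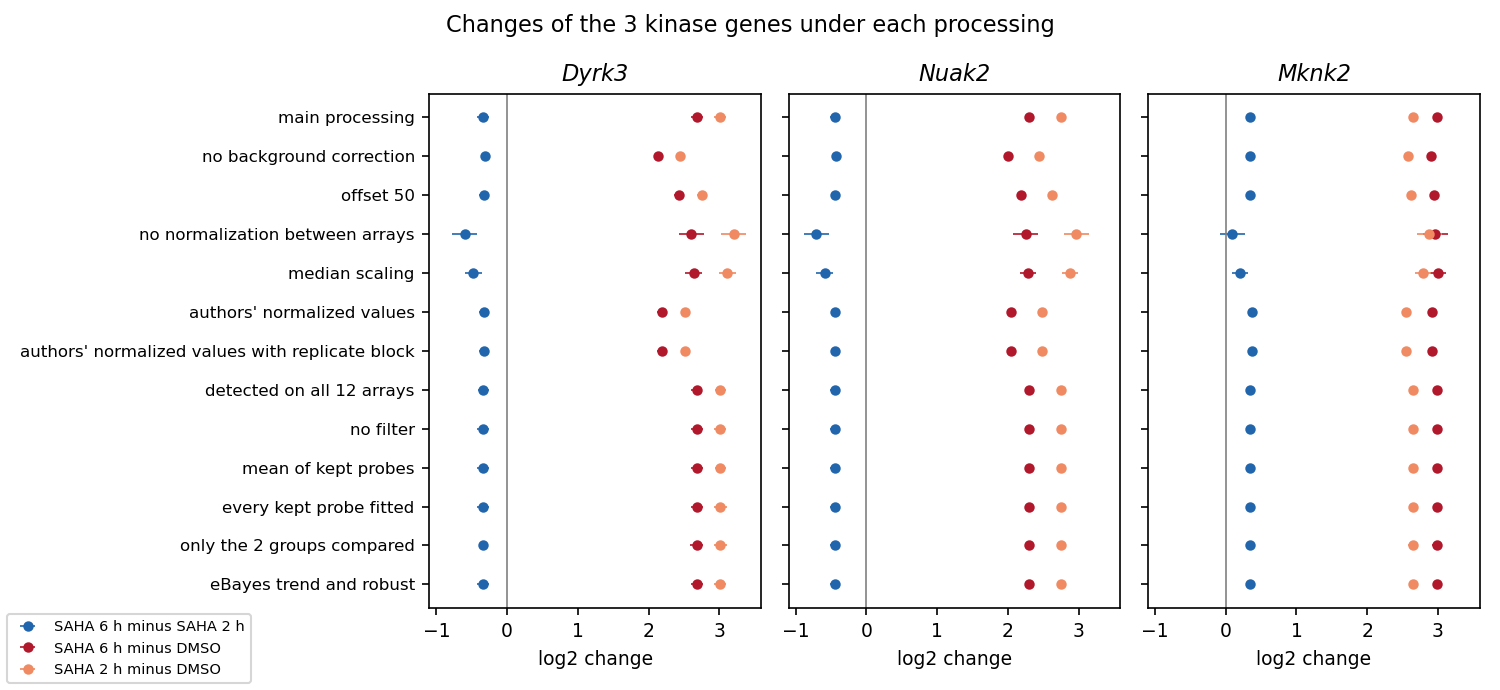
Log2 changes of Dyrk3, Nuak2 and Mknk2 under the main processing and 12 alternatives, with standard errors of the fit as bars. The 6 h and 2 h changes against DMSO stayed at 2.01 or more in each of these settings, and the difference between the time points was smallest for Mknk2 with no normalization between arrays (0.09).

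Among the relatives of Dyrk3, falls outnumbered rises at both times. Of 16 other kinase genes of the DYRK, HIPK, CLK and SRPK families 12 were measured, and at 6 h 2 rose, 8 fell and 2 did not pass. At 2 h 2 rose, 6 fell and 4 did not pass. Of all genes tested 38.5% fell at 6 h and 30.7% at 2 h. The median log2 change was -0.41 at 6 h and -0.29 at 2 h, beside 0.01 and -0.02 over all genes. This list, like the ones that follow, was drawn up from textbook knowledge, with earlier results of these data known. Each leaves out the 3 kinase genes themselves.

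Dyrk1b, a kinase that holds cells in quiescence, fell by 1.49 ± 0.09 at 6 h and fell by 1.80 ± 0.09 at 2 h. Dyrk1a, the Down syndrome region kinase, fell by 1.69 ± 0.11 at 6 h, where 3 of 4 arrays detected it, and by 0.95 ± 0.11 at 2 h, with log2 changes of -0.99 and -0.89 for its other probe. Dyrk2, a kinase of the same class as DYRK3, fell by 0.51 ± 0.09 at 6 h and had a log2 change of -0.04 ± 0.09 at 2 h that did not pass. Dyrk4 was not analysed here. Hipk3, a homeodomain-interacting kinase, had no detected 6 h array, and its level there was lower than in DMSO by at least 1.58-fold. Of the splicing kinases, Clk4 fell by 0.94 ± 0.07 at 6 h and 0.55 ± 0.07 at 2 h, and its other 2 probes had log2 changes of -0.39 and -0.95 at 6 h and -0.18 and -0.49 at 2 h. Srpk2 rose by 1.22 ± 0.08 and 0.41 ± 0.08. Clk2 rose by 0.26 ± 0.06 at 6 h and fell by 0.47 ± 0.06 at 2 h, with 0.31 and -0.40 for a second probe. Another probe of Clk2 had no detected 6 h array and no measured change there. It was detected on 2 of 4 arrays both at 2 h and in DMSO, with a log2 change of -0.01 at 2 h.

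Genes around DYRK3 in stress granules and mTORC1 signalling moved in both directions. All 19 were measured, and 5 rose and 12 fell at 6 h, against 6 that rose and 8 that fell at 2 h. The share changed was 89.5% at 6 h and 73.7% at 2 h, beside 77.4% and 58.6% of all genes. The medians were -0.28 and -0.22, beside 0.01 and -0.02 over all genes. Akt1s1, which encodes PRAS40, fell by 1.33 ± 0.08 at 6 h and 0.60 ± 0.08 at 2 h. Mlst8, a subunit of the mTOR complexes, fell by 1.15 ± 0.06 and 1.72 ± 0.06, and its other 2 probes by 1.07 to 1.10 and 1.62 to 1.76. Deptor, an mTOR inhibitor, rose by 1.09 ± 0.09 and 0.59 ± 0.09. Of the granule proteins, Tia1 fell by 1.15 ± 0.07 at 6 h and 0.78 ± 0.07 at 2 h, whereas G3bp1 rose by 0.34 ± 0.07 and 0.19 ± 0.07. Sirt1, a deacetylase that DYRK3 phosphorylates in human cells, fell by 0.80 ± 0.10 and 1.26 ± 0.10.

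Among AMPK-related kinases and their LKB1 activator complex, 15 of 25 genes were measured beside Nuak2. At 6 h 11 rose, 3 fell and 1 did not pass, and at 2 h 6 rose, 4 fell and 5 did not pass. The share that rose was 73.3% at 6 h and 40.0% at 2 h, beside 38.9% and 27.8% of all genes. The share changed was 93.3% and 66.7%, beside 77.4% and 58.6%. The median log2 change was 0.55 at 6 h and 0.14 at 2 h, beside 0.01 and -0.02 over all genes. Nuak1, the sister gene of Nuak2, fell by 0.25 ± 0.08 at 6 h and had a change of 0.15 ± 0.08 at 2 h that did not pass. Its other probe had changes of -0.09 and 0.32. Sik1, a salt-inducible kinase, had no detected DMSO array, and its rise was at least 1.99-fold at 6 h and at least 1.38-fold at 2 h.

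Stk11, which encodes LKB1, rose by 0.29 ± 0.07 at 6 h and 0.21 ± 0.07 at 2 h. Its partner genes Stradb and Cab39l rose by 0.59 ± 0.06 and 0.68 ± 0.07 at 6 h, with a change of 0.23 for the other probe of Stradb. At 2 h Cab39l did not pass. Strada rose by 0.39 ± 0.09 at 6 h and fell by 0.52 ± 0.09 at 2 h. Prkab2, a regulatory subunit of AMPK, rose by 0.82 ± 0.10 at 6 h and 1.14 ± 0.10 at 2 h. Snrk, a further kinase of the family, rose by 0.63 ± 0.06 and 0.36 ± 0.06. The catalytic AMPK genes Prkaa1 and Prkaa2 were not analysed here.

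In the Hippo pathway, 18 of 24 genes were measured. At 6 h 7 rose, 7 fell and 4 did not pass, and at 2 h 7 rose, 5 fell and 6 did not pass. The share changed was 77.8% at 6 h and 66.7% at 2 h, near the 77.4% and 58.6% of all genes. Yap1 fell by 1.08 ± 0.09 at 6 h and 0.42 ± 0.09 at 2 h. The genes known as YAP targets did not move one way. Ccn1 rose by 1.41 ± 0.11 at 6 h and 0.27 ± 0.11 at 2 h and Ccn2 by 0.66 ± 0.07 and 0.23 ± 0.07, while Ankrd1 fell by 1.64 ± 0.08 and 1.30 ± 0.08. Stk4, the upstream kinase MST1, rose by 1.11 ± 0.06 and 0.83 ± 0.06, and the YAP partner gene Tead2 fell by 1.12 ± 0.07 at 6 h and 0.26 ± 0.07 at 2 h. Ppp1r12a, the myosin phosphatase subunit on which NUAK2 acts, had changes of -0.21 ± 0.10 at 6 h and -0.15 ± 0.10 at 2 h and did not pass.

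Mknk1, the sister gene of Mknk2, rose as well, by 1.41 ± 0.06 at 6 h and 0.81 ± 0.06 at 2 h. A second probe had changes of 1.47 and 0.80, and the remaining one was detected on 0 of 4 arrays in DMSO and at 2 h and on all 4 at 6 h. Of 26 genes of the MNK pathway and eIF4E other than Mknk2, 18 were measured, with 7 that rose, 9 that fell and 2 that did not pass at 6 h. At 2 h 6 rose, 6 fell and 6 did not pass. The share changed was 88.9% at 6 h and 66.7% at 2 h, beside 77.4% and 58.6% of all genes. The medians were -0.14 and 0.03, beside 0.01 and -0.02 over all genes.

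The kinase genes upstream of MNK2 changed in different ways. Mapk14, which encodes p38 alpha, rose by 0.73 ± 0.07 at 6 h and 0.76 ± 0.07 at 2 h. Map2k3, an activator of p38, rose by 0.80 ± 0.06 and 1.01 ± 0.06. Map2k6, a second p38 activator, had no detected DMSO array, and its rise at 6 h was at least 2.44-fold. Map2k1, which encodes the kinase MEK1, rose by 1.19 ± 0.10 at 6 h and 0.32 ± 0.10 at 2 h, but Map2k2 (MEK2) fell by 0.57 ± 0.08 and 0.30 ± 0.08, with log2 changes of -0.20 and -0.26 for its other probe. Mapk11, which encodes p38 beta, had changes of -0.01 ± 0.07 at 6 h and 0.07 ± 0.07 at 2 h and did not pass.

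Downstream of MNK2 the picture was mixed. Eif4e had changes of 0.28 ± 0.12 at 6 h and 0.13 ± 0.12 at 2 h and did not pass. Eif4ebp2, a binding protein that represses eIF4E, rose by 1.34 ± 0.12 and 0.85 ± 0.12, whereas Eif4ebp1 fell by 0.51 ± 0.10 and 0.39 ± 0.10. Hnrnpa1, an RNA-binding substrate of MNK kinases, fell by 0.27 ± 0.08 at 6 h and had -0.02 ± 0.08 at 2 h, with 0.04 and -0.32 for its other 2 probes at 6 h. Of the 4 measured genes out of 9 that encode other MAPK-activated kinases, 3 rose at 6 h and 4 at 2 h. Among all genes tested, 38.9% rose at 6 h and 27.8% at 2 h. Rps6ka5 (MSK1) rose by 1.09 ± 0.08 and 0.78 ± 0.08 and Mapkapk2 by 0.66 ± 0.07 and 0.46 ± 0.07, while the probes of Mapkapk3 had changes from -0.39 to 0.65 at 6 h.

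**Figure D3:**
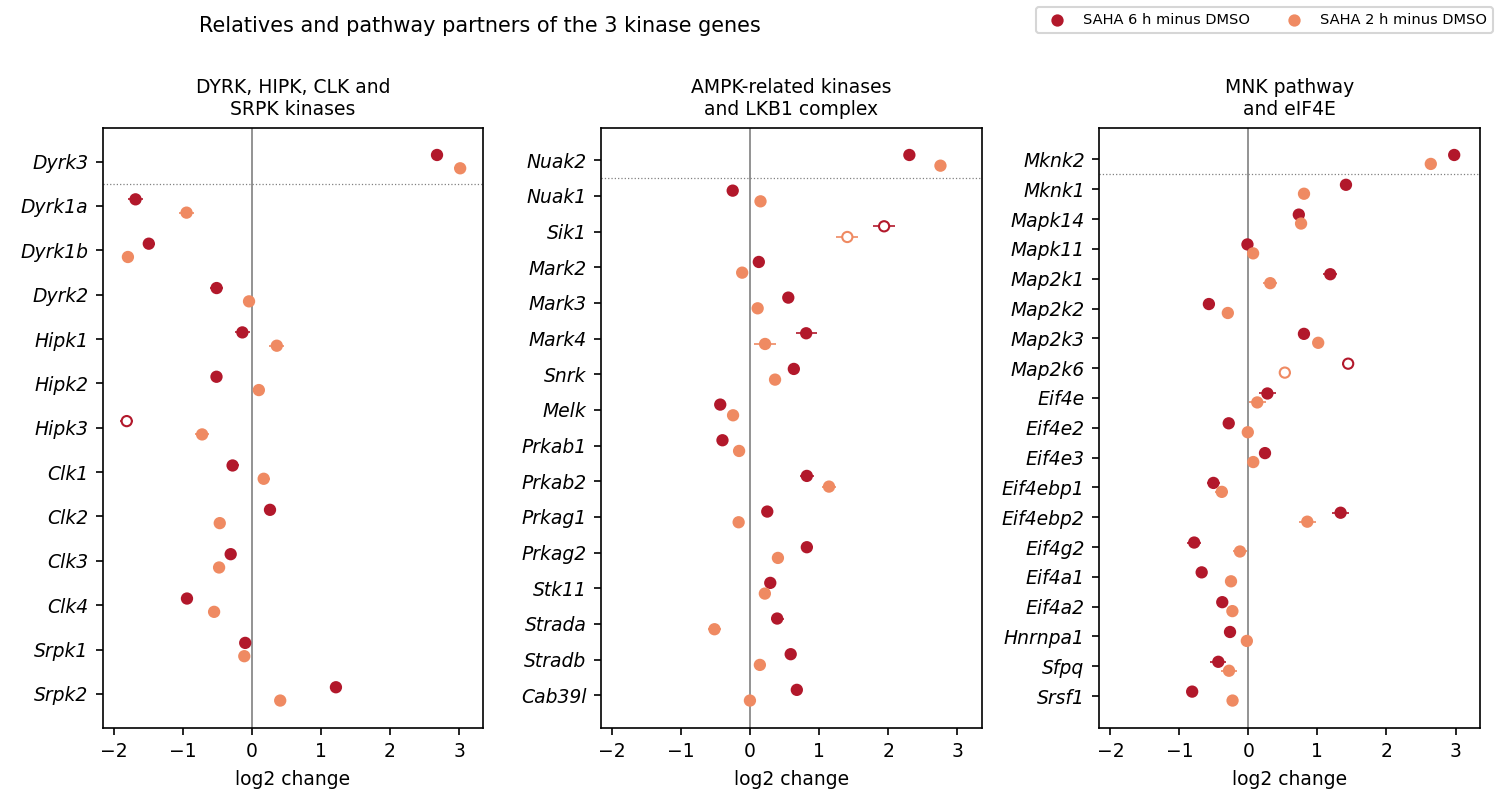
Log2 changes, with standard errors of the fit, of Dyrk3, Nuak2 and Mknk2 (above the dotted line) and of the measured genes of the DYRK, AMPK-related and MNK lists, for SAHA 6 h and SAHA 2 h against DMSO. Open points are fitted values of genes undetected on all arrays of a group, such as Sik1 and Map2k6 in DMSO. Dyrk1a and Dyrk1b lay below 0 at both times, and Mknk1 above 0.

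Over 73 other kinase genes of the CMGC and CAMK groups, 71 were detected in both groups at 6 h against DMSO and 70 at 2 h against DMSO. Of these, 8 had a fitted rise of at least 2-fold at 6 h and 2 did at 2 h. Among all genes tested, 10.0% were called and at least 2-fold higher at 6 h and 3.12% at 2 h. For these kinase genes the largest rise at 6 h was that of Mok, a MAPK-like kinase, with 2.27 ± 0.07, below the 2.31 of Nuak2. At 2 h the largest was that of Pim3, a survival kinase, with 1.16 ± 0.06. The selection fixed that any other kinase gene lay below Dyrk3, Nuak2 and Mknk2 at 2 h. The set of 73 was chosen after its values were seen, so its ranking is a description. Of the 77 other genes of these groups put on a list of their own, 48 were measured. At 6 h 18 rose, 19 fell and 11 did not pass, and at 2 h 11 rose, 11 fell and 26 did not pass. The share changed was 77.1% at 6 h and 45.8% at 2 h, beside 77.4% and 58.6% of all genes. The medians of this list were 0.03 and -0.04, beside 0.01 and -0.02 over all genes. The lowest change on it was that of Trib3, a pseudokinase gene of the stress response, which fell by 1.88 at 6 h and fell by 3.55 at 2 h. The differences between kinase genes were not tested.

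Dyrk3 and Nuak2 both lie on mouse chromosome 1, and Mknk2 is on chromosome 10. In RefSeq (GRCm38.p6) 35 genes lie between Dyrk3 and Nuak2, of which 10 were measured. At 6 h 3 of these rose, 6 fell and 1 did not pass, and at 2 h 4 rose, 4 fell and 2 did not pass, with medians of -0.41 and -0.05. Of all genes 38.9% rose and 38.5% fell at 6 h, and 27.8% rose and 30.7% fell at 2 h.

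Rassf5, a Ras-binding tumour suppressor gene, rose by 0.91 ± 0.06 at 6 h and 1.84 ± 0.06 at 2 h. Rab7b, a small GTPase gene of endosomes, fell by 0.92 ± 0.05 at 6 h and rose by 0.45 ± 0.05 at 2 h. Nucks1, a chromatin protein gene, fell by 1.51 ± 0.07 and 0.25 ± 0.07, Elk4, an SRF partner gene, by 1.03 ± 0.08 and 0.37 ± 0.08, and Rab29, a GTPase gene of the trans-Golgi, by 1.00 ± 0.08 and 0.73 ± 0.08. Slc45a3, a transporter gene counted among the rises, had no detected array in DMSO or at 2 h, so that its count among the rises at 2 h has no measured level behind it, and its rise at 6 h was at least 1.46-fold. The kinase gene Ikbke fell by 0.57 ± 0.09 at 6 h and 0.31 ± 0.09 at 2 h.

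**Figure D4:**
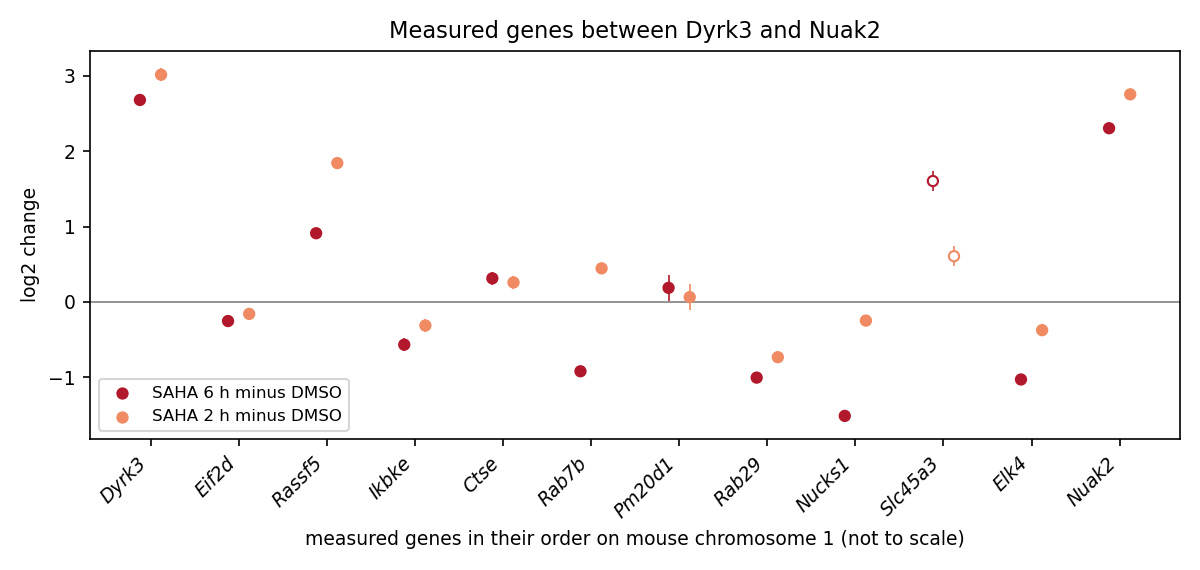
Log2 changes, with standard errors of the fit, of Dyrk3, Nuak2 and the 10 measured genes between them, in their order on mouse chromosome 1 and not to scale. Open points are fitted values of Slc45a3, which was undetected on all DMSO arrays. Rassf5 rose at both times and Nucks1, Elk4, Rab29 and Ikbke fell at both.

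The genes with the profile most like that of each kinase gene were found by Pearson's correlation of log2 values over the 12 arrays, which is set mostly by the differences between the 3 groups. Correlations above 0.9 were common, with 586 genes for Dyrk3, 518 for Nuak2 and 970 for Mknk2. The 5 closest to Dyrk3 were Rbm38, Nuak2, Atp10d, Plekho2 and Bcl2l11, with r from 0.994 to 0.997. The 5 closest to Nuak2 were Errfi1, Dyrk3, Bcl2l11, Ppif and Plekho2, with r from 0.995 to 0.996. Dyrk3 and Nuak2 stood on each other's list, at r = 0.996. Both had been selected for a large rise at 2 h on these same arrays, which favours a high correlation between them. All of these genes were lower at 6 h than at 2 h in their fitted values, by 0.08 for Atp10d up to 0.46 for Bcl2l11 on the log2 scale. That direction was favoured by picking them for likeness to Dyrk3 and Nuak2.

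The 5 genes closest to Mknk2 were Rita1, Ptges, Nup43, C2cd2l and Usp28, with r of 0.995 to 0.996. Each was higher at 6 h than at 2 h in its fitted values, from 0.13 for C2cd2l to 0.37 for Ptges, a direction favoured by picking them for likeness to Mknk2. Mknk2 correlated with Dyrk3 at r = 0.976 and with Nuak2 at r = 0.966, values that the selection at 2 h also favours. The genes of reference Actb and Gapdh had log2 changes of 0.06 ± 0.05 and 0.25 ± 0.05 at 6 h, of which Gapdh passed. At 2 h the changes were -0.04 ± 0.05 and 0.10 ± 0.05. However, 2 of the other 4 probes of Actb had changes of 0.78 and 0.80 at 6 h, and of 1.26 and 1.21 at 2 h. The remaining 2 had 0.05 and 0.06 at 6 h, and 0.17 and 0.02 at 2 h.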

How the data were processed

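Total RNA of 12 samples (200 ng each) was labelled with biotin and hybridised to an Illumina mouse BeadChip, per the labels' protocols. Per the file headers, the first deposited table holds non-normalized signal intensity per probe and array with a detection p-value for each. Its columns name a group and an array number. The second deposited table holds intensity values normalized by the authors, by a method not given in the sources used here, and 6244 of its 543372 values are written in a short exponent form. Intensities were background-corrected with detection p-values, raised by an offset of 16, quantile-normalized and converted to log2 (neqc, limma 3.58.1, R 4.3.3). Probes were kept at a detection p under 0.01 on at least 4 of 12 arrays, and a gene is its kept probe with the highest mean. Of 45281 probes 34885 had 1 gene symbol, 18 several and 10378 none. Of 16431 kept probes 14136 had 1 symbol, which gave 9153 genes.

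Linear models were fitted to all 3 groups with moderated two-sided tests, Benjamini-Hochberg adjustment over all genes and a threshold of 0.05. The fit was tested on simulated data. A gene undetected on all arrays of a group has a lower bound in place of a fold, taken against the higher of its own signal and the lowest detected signal of each array. Folds include the offset, which understates the change of dim genes. The kinase genes and all lists were chosen with earlier results of these data known. Named genes are the 3 kinase genes, 27 genes fixed by name of which 22 were measured, up to 4 called members of each list with the smallest p, the 5 closest profiles and called neighbours changed at least 1.5-fold. Map2k2 and Mapk11, and the set of 73 other kinase genes, were chosen after their values were seen. Samples with the same replicate number, known only in the second table, deviated together for 2 h against DMSO (correlations 0.170 to 0.394) and for 6 h against 2 h (0.168 to 0.348). For unlike numbers the highest correlations were 0.150 and 0.222, so the ranges overlapped for 6 h against 2 h. The number was therefore also fitted as a block. No batch, slide or date is given. The number of arrays limits the precision: over all genes the standard error of a log2 change had a median of 0.08.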

Additional observations from a re-analysis of the deposited data

Results flagged for a closer look

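The change against DMSO differed between the 2 times for all 3 kinase genes, by the test of 6 h against 2 h: the log2 difference was -0.34 for Dyrk3, -0.45 for Nuak2 and 0.34 for Mknk2, the last without a call under 2 of the normalizations. The genes were selected on high 2 h values, which enter this test and favour lower values at 6 h. In 3 of 75 combinations of a gene and a group, 1 array stood apart from the other 3, as happens by chance in about 1 of 20. None of the 3 concerned Dyrk3, Nuak2 or Mknk2. The lowest 2 h array of Ccn2 was at 12.78 on the log2 scale and the others at 12.96 to 12.98, a gap of 0.877 of the range. The lowest DMSO array of Ikbke was at 6.80 and the others at 7.13 to 7.17, a gap of 0.895 of the range. The highest 6 h array of Gapdh was at 14.53, and the other 3 had the same value, 14.47, a gap of 1.0 of the range.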

How the results depend on the processing

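Of the values recomputed, the 6 h changes of all 3 kinase genes kept their direction and their call in each alternative run, as did the falls of Dyrk3 and Nuak2 between the times. The 6 h minus 2 h difference of Mknk2 did not: it was 0.089 with no normalization between arrays and 0.21 with median scaling. The cause was not tested. The 2 h difference was 2.45 for Dyrk3 and 2.44 for Nuak2 with no background correction, and 2.76 and 2.62 with an offset of 50. For Nuak2 and Mknk2 it was 2.97 and 2.88 with no normalization between arrays, and 2.88 and 2.79 with median scaling. In the authors' normalized values it was 2.52 for Dyrk3, 2.48 for Nuak2 and 2.55 for Mknk2, and the same with the replicate block, which changed no call of these 3 genes. With the block 5877, 7301 and 6148 genes changed at 2 h, at 6 h and between the times, against 5506, 7106 and 5836 without it, and the DYRK, AMPK-related and MNK lists each gained 1 changed member at 2 h. The numbers did not pair 6 h with DMSO (correlations 0.013 to 0.121). With no normalization 3470 genes changed at 2 h and 3517 between the times, against 5360 and 5743, and the DYRK, AMPK-related and MNK lists had 5, 5 and 6 changed members at 2 h, against 8, 10 and 12. With median scaling the MNK list had 6. Fitting each kept probe gave 8784 changed probes at 2 h, 11970 at 6 h and 9253 between the times, from more features tested. Leaving out 1 array at a time gave 2.94 to 3.08, 2.60 to 2.74 and -0.36 to -0.31 for Dyrk3 at 2 h, at 6 h and for 6 h minus 2 h. It gave 2.73 to 2.79, 2.28 to 2.33 and -0.48 to -0.43 for Nuak2, and 2.61 to 2.67, 2.95 to 3.01 and 0.32 to 0.36 for Mknk2. Of the 3 kinase genes Dyrk3 had the lowest DMSO intensity, and its changes against DMSO moved most with no background correction.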
